A study of Mus musculus with 10 samples.

Results

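The genes described here encode the potassium channels and their auxiliary subunits in the developing mouse cortex. They were chosen by name, as the protein-coding genes whose symbol is Kcn followed by letters and a number, which gave 90 of the 56748 genes in the count tables. Kcne2 and Kcnj13 match the pattern but were left out because they mark the choroid plexus, the secretory epithelium at the dorsal midline. Their symbols have 20 stems, grouped here into 15 subfamilies, with the silent subunits Kcnf, Kcng, Kcns and Kcnv as 1 group and Kcnma, Kcnt and Kcnu as another. RNA-seq read counts came from 10 libraries of cortex from E12.5 mouse embryos, 5 labelled Emx2 KO and 5 labelled WT, and the comparison asks which transcripts differ in cortex between embryos labelled as knockout for Emx2, a homeobox transcription factor, and WT embryos. The labels give the genotype only as Emx2 KO or WT. Strain, the design of the allele and whether a library is 1 embryo or a pool are not given in the sources used here, so p-values measure the spread between libraries, which may be partly technical.

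Potassium channels let potassium ions leave or enter the cell through a selective pore. They set the resting potential of progenitors and neurons, end action potentials and shape firing. Voltage-gated channels (Kcna, Kcnb, Kcnc, Kcnd, Kcnh, Kcnq) open on depolarisation, and silent subunits (Kcnf, Kcng, Kcns, Kcnv) form no working channel alone but alter those of the Kcnb type. Calcium- and sodium-activated channels (Kcnma, Kcnt, Kcnn) open on ions inside the cell, inward rectifiers (Kcnj) and tandem-pore leak channels (Kcnk) act near rest, and the Kcnab, Kcne, Kcnip and Kcnmb genes encode subunits that attach to a pore and change its gating or its place in the cell.

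The libraries held 9720840 to 35674113 counts. In each title code, the number that ends a sample title and whose meaning is not given, the Emx2 KO and the WT libraries were of different size classes, either above or below 20000000 counts. Cortical identity genes were present in every library, with the summed level of 6 such genes at 2145 to 2433 in Emx2 KO and 1769 to 1973 in WT, in CPM (read counts relative to the library total, scaled by TMM). Emx2 itself stood at 146, 129, 109, 137 and 94.6 CPM in Emx2 KO replicates 1 to 5 and at 207, 179, 175, 182 and 186 CPM in WT replicates 1 to 5. It was lower in all 5 Emx2 KO libraries but far from absent (log2 fold change -0.59 ± 0.11 SE, adjusted p = 0.00271). Counts are sums along the whole gene and the design of the allele is not given. The source of the remaining Emx2 reads was not tested.

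Most potassium channel genes were detected in this tissue, and a few genes carried much of their summed level. Of the 90 genes, 74 had a read in every library, 60 reached 1 CPM on average in WT and 21 reached 10 CPM. Their summed level ran from 635 to 900 CPM in WT and from 767 to 1015 CPM in Emx2 KO, so the groups overlapped. Per kilobase of annotated exon, the WT libraries held most of Kcnk5 (8.73 ± 0.80 CPM per kb, SD, n = 5), an acid-sensitive leak channel. Other abundant genes were the Kv1-type channel Kcna3 (6.95 ± 1.12), the A-type channel Kcnd3 (5.59 ± 1.39), the small-conductance calcium-activated channel Kcnn1 (5.15 ± 0.94) and the leak channel Kcnk10 (4.97 ± 0.41). From Kcna3 down to Kcnk10, neighbours in this order differed by less than the larger of their SDs, while Kcnk5 and Kcna3 differed by more. In Emx2 KO the order of these 5 was Kcnk10, Kcnk5, Kcnd3, Kcna3 and Kcnn1, with Kcnk10 at 9.86 ± 0.55 CPM per kb.

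**Figure D1:**
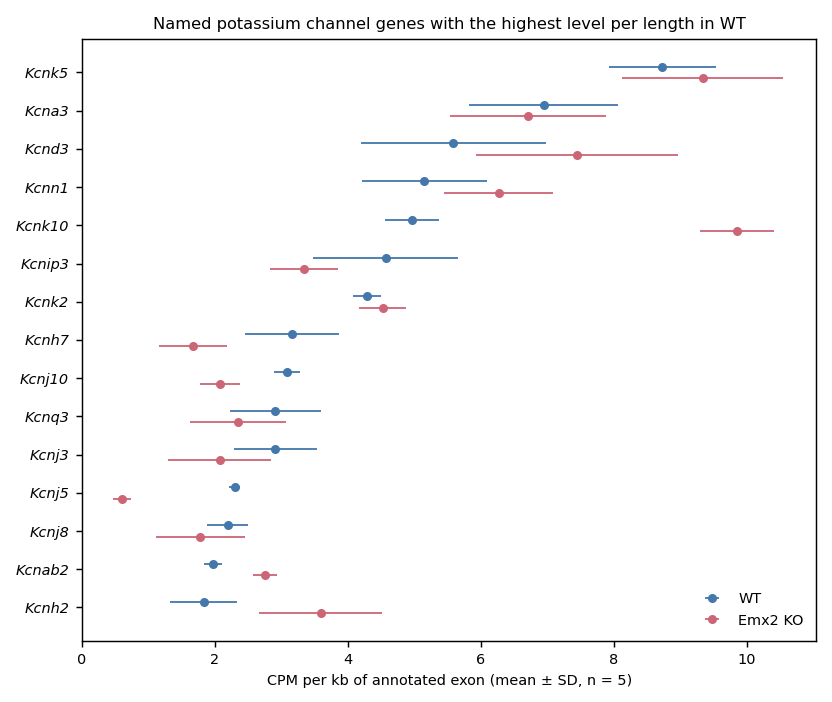
Level per length of the 15 named potassium channel genes highest in WT, as CPM per kilobase of annotated exon, with points for the mean and bars for the SD of 5 libraries per genotype. Kcnk10 stands higher in Emx2 KO (9.86 against 4.97 CPM per kb), and Kcnj5, Kcnj10 and Kcnh7 stand lower.

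Single potassium channel genes differed between the genotypes in both directions, while the set as a whole did so about as often as other genes. After a filter on low counts 71 of the 90 genes were tested. Of these, 11 were higher in Emx2 KO (15.5%, against 12.9% of all 18163 genes tested) and 6 were lower (8.45%, against 9.33%), at an adjusted p under 0.05. In either direction that is 23.9% of the potassium channel genes and 22.2% of all genes, which is no result about the set. The median log2 fold change was 0.02 for the 71 and -0.01 for all genes tested. With total counts as the only scaling the split was 10 higher and 10 lower, and over all genes it was 1786 and 2464 in place of 2345 and 1694. The median absolute log2 fold change was 0.39 for the 71 genes and 0.16 for all genes, given as a description. In bulk tissue, fewer cells of a type and less RNA per cell cannot be told apart.

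The libraries of the genotypes did not overlap for 11 potassium channel genes with Emx2 KO above WT (15.5%, against 9.63% of all genes) and for 6 with Emx2 KO below WT (8.45%, against 7.06%). Of the 17 genes past the threshold, 16 were separated in this way, and Kcnh7 was the exception. Among the 76 channel genes 60 were tested, of which 9 rose, 6 fell and 45 did not pass (25.0% past the threshold). Among the 14 auxiliary genes 11 were tested, of which 2 rose, 0 fell and 9 did not pass (18.2%). Both shares are near the 22.2% of all genes, so they show no difference between channel and auxiliary genes.

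**Figure D2:**
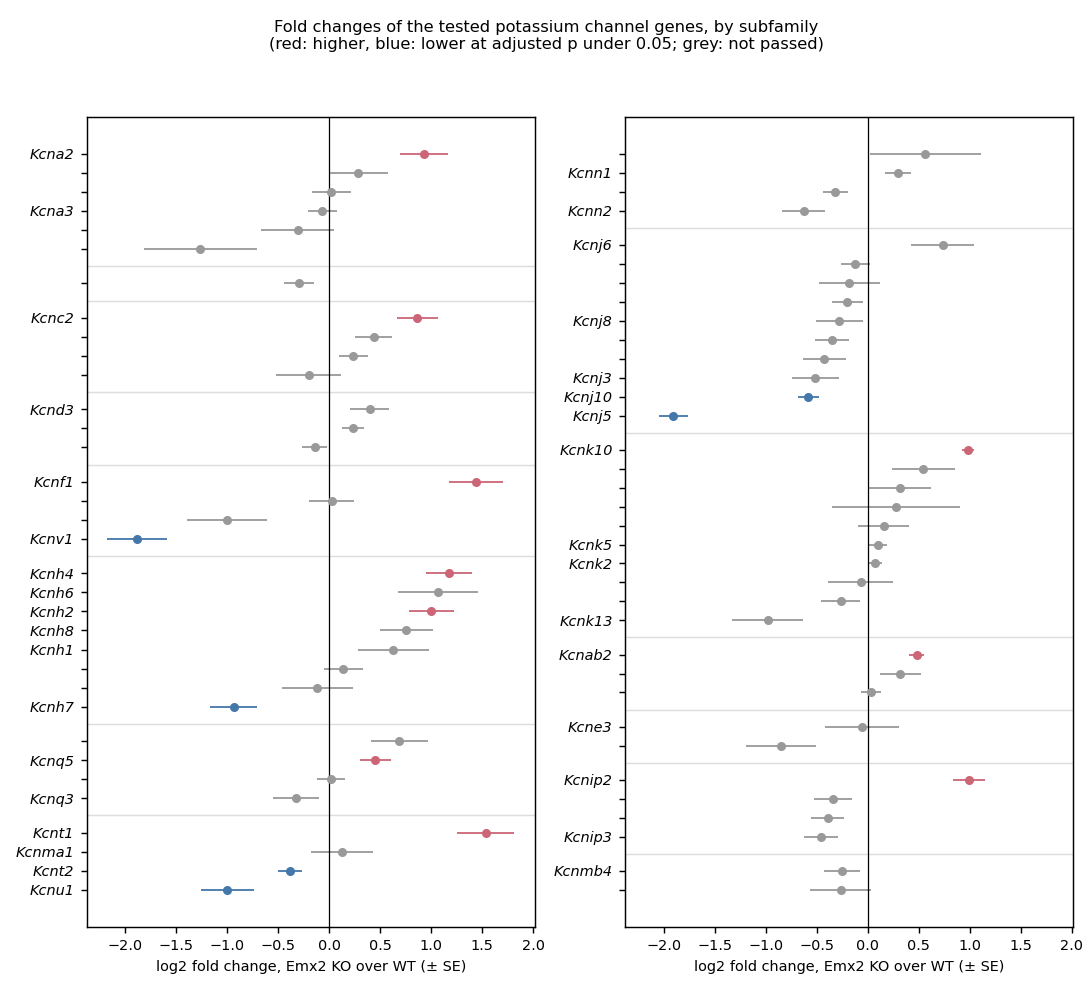
Log2 fold change (Emx2 KO over WT) of 69 of the 71 tested potassium channel genes, labelled where the text names them and grouped by subfamily from the voltage-gated channels at the upper left to the auxiliary subunits at the lower right. Points are fitted values, bars are SE, and colour marks genes past adjusted p 0.05 (red higher, blue lower). Higher and lower members stand side by side in Kcnh, Kcnt and the silent subunits, and 9 of the 10 Kcnj genes lie below 0.

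The clearest rise was in the leak channels. Kcnk10 (ENSMUSG00000033854, chromosome 12) encodes TREK-2, a tandem-pore channel that responds to stretch, heat and lipids. It stood at 82.7, 93.1, 89.1, 81.0 and 86.5 CPM in Emx2 KO replicates 1 to 5. The WT replicates 1 to 5 stood at 40.8, 46.1, 45.2, 47.0 and 38.8 CPM. Every Emx2 KO library was therefore far above every WT library, with a gap wider than the range of either group. The fold change was 1.98 (log2 0.98 ± 0.06, edgeR quasi-likelihood test, adjusted p = 1.41e-06), which gave the smallest p of all 71 genes. It was the only Kcnk gene of 10 tested to pass.

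The nearest relative of Kcnk10 in kind, the stretch-sensitive Kcnk2 (TREK-1), was at 22.4 ± 1.74 CPM in Emx2 KO and 21.2 ± 1.02 in WT (log2 fold change 0.08 ± 0.07, adjusted p = 0.482). Per kilobase, Kcnk10 was 1.96 to 2.45 times the level of Kcnk2 in the Emx2 KO libraries and 1.05 to 1.30 times in the WT libraries. Kcnk5, the most abundant member per length in WT, was at 31.8 ± 4.11 and 29.7 ± 2.72 CPM (log2 0.10 ± 0.09, adjusted p = 0.5005). Kcnk13, which encodes a halothane-inhibited leak channel, was lower in all 5 Emx2 KO libraries but missed the threshold (0.746 ± 0.385 against 1.48 ± 0.313 CPM, log2 -0.98 ± 0.35, adjusted p = 0.0620). It passed with DESeq2 and with limma-voom. The summed Kcnk level was 148 to 156 CPM in Emx2 KO and 98.2 to 111 CPM in WT. Without Kcnk10 it was 62.8 to 67.6 and 58.8 to 64.6 CPM, and the groups overlapped.

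Among inward rectifiers, Kcnj5 and Kcnj10 fell. Kcnj5 (ENSMUSG00000032034, chromosome 9) encodes GIRK4, a subunit of channels opened by G proteins downstream of inhibitory receptors. Its level was 3.74, 2.83, 2.82, 2.86 and 1.94 CPM in Emx2 KO replicates 1 to 5, and 10.8, 10.7, 10.5, 11.4 and 10.5 CPM in WT replicates 1 to 5. The WT libraries lay within a narrow band, and the highest Emx2 KO library was well below it. The Emx2 KO level was 0.267 of the WT level (log2 -1.91 ± 0.14, adjusted p = 4.78e-06).

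Kcnj10 (chromosome 1), which encodes Kir4.1, the inward rectifier that glia use to take up potassium, also fell. It stood at 9.81, 12.4, 11.9, 9.21 and 12.8 CPM in Emx2 KO and at 14.99, 16.8, 18.0, 17.0 and 16.7 CPM in WT. The groups were separate (log2 -0.58 ± 0.10, adjusted p = 0.00149).

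The other 8 tested Kcnj genes did not pass. Kcnj3, which encodes GIRK1, a partner of GIRK4, was at 10.8 ± 4.03 against 15.2 ± 3.24 CPM (log2 -0.51 ± 0.23, adjusted p = 0.149). Kcnj6, for GIRK2, was the only tested Kcnj gene with a value above 0 (log2 0.74 ± 0.31, adjusted p = 0.112), and it passed with title code as a block. Kcnj8 and Abcc9, a channel gene and its sulfonylurea-receptor partner that mark pericytes, the cells on capillary walls, had log2 fold changes of -0.28 ± 0.23 and -0.43 ± 0.17 (adjusted p = 0.452 and 0.0945). Summed over the 14 Kcnj genes, the level was 45.8 to 56.6 CPM in Emx2 KO and 64.2 to 75.3 CPM in WT. Without Kcnj5 and Kcnj10 the ranges were 31.8 to 41.8 and 37.0 to 47.8 CPM and overlapped.

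The promoters of Kcnk10 and Kcnj5 are shown because these genes had the smallest p in each direction. Each sequence is the 250 bases before an annotated start, 5′ to 3′ on the gene's strand, from RefSeq on build GRCm38.p6, which is not the mouse build named in the submitters' processing notes (GRCm39). Capitals mark TAAT on either strand, the core that homeodomain proteins such as EMX2 bind. The Kcnk10 windows lie at chr12:98578214-98578463 and chr12:98575128-98575377 and that of Kcnj5 at chr9:32344345-32344594, all on the minus strand.
Kcnk10, distal start: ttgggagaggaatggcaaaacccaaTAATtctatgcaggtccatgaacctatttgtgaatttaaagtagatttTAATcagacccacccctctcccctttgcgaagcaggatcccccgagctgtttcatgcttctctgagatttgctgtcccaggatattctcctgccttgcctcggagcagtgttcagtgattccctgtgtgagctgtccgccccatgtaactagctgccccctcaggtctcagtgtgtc
Kcnk10, proximal start: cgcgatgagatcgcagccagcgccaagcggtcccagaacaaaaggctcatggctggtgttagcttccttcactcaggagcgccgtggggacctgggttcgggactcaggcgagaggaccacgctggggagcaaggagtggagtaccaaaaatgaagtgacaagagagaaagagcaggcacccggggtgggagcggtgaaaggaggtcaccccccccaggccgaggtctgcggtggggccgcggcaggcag
Kcnj5: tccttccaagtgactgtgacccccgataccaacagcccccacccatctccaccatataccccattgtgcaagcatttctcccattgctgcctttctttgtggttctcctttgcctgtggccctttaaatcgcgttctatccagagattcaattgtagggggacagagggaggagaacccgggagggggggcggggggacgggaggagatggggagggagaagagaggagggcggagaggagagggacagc
The distal window of Kcnk10 holds 2 matches, and its proximal window and that of Kcnj5 hold 0. TAAT occurs in 54.9% of all 32851 such windows and in 41.6% of the 89 windows that matched 65 of the 90 potassium channel genes. The longer palindrome TAATTA was in 4.84% of all windows and in 0 of the 89. Median GC content was 58.8% in the 89 windows and 52.4% in all windows. These letter matches are a description and show no binding.

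Sodium-activated channels moved in opposite directions. Kcnt1 (ENSMUSG00000058740, chromosome 2) encodes Slack, a sodium-activated channel that follows bursts of firing. It stood at 21.5, 34.4, 22.1, 32.6 and 23.9 CPM in Emx2 KO replicates 1 to 5 and at 10.6, 9.37, 9.72, 12.53 and 3.05 CPM in WT replicates 1 to 5. All Emx2 KO libraries were above all WT libraries, and WT replicate 5 was the lowest of all. The fold change was 2.90 (log2 1.53 ± 0.28, adjusted p = 0.00341).

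Its paralogue Kcnt2 (chromosome 1), which encodes Slick, was slightly lower. It stood at 5.09, 5.09, 4.75, 4.91 and 4.85 CPM in Emx2 KO and at 7.08, 7.70, 5.35, 6.41 and 5.90 CPM in WT. The groups only just failed to touch, between 5.09 and 5.35 CPM (log2 -0.39 ± 0.12, adjusted p = 0.0346). Leaving out 1 library ended this call in 7 of 10 fits, with adjusted p up to 0.0798. Per kilobase, the ratio of Kcnt1 to Kcnt2 was 3.07, 4.90, 3.38, 4.82 and 3.59 in the Emx2 KO libraries and 1.08, 0.883, 1.32, 1.42 and 0.375 in the WT libraries.

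Kcnu1, the gene of a pH-sensitive channel known from sperm, was at 0.479 ± 0.0307 CPM in Emx2 KO and 0.947 ± 0.302 CPM in WT (log2 -1.003 ± 0.26, adjusted p = 0.0155). It lost its call without WT replicate 4 (adjusted p = 0.0568). Kcnma1, for the large-conductance calcium-activated BK channel, was at 9.03 ± 3.80 and 8.12 ± 2.95 CPM (log2 0.12 ± 0.31, adjusted p = 0.836). None of the 4 small- and intermediate-conductance Kcnn genes passed. Kcnn1 was at 28.8 ± 3.75 against 23.6 ± 4.30 CPM (log2 0.29 ± 0.13, adjusted p = 0.131), and Kcnn2 came closest from the other side (6.11 ± 1.65 against 9.22 ± 2.697 CPM, log2 -0.63 ± 0.21, adjusted p = 0.0541). Kcnn2 passed with title code as a block, and also with DESeq2 and limma-voom.

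The ether-à-go-go family (Kcnh) held changes of both signs. Kcnh2 (ENSMUSG00000038319, chromosome 5) encodes ERG1, known for its repolarising current in the heart. It stood at 15.7, 17.1, 23.8, 18.9 and 11.6 CPM in Emx2 KO and at 8.50, 11.6, 7.62, 5.70 and 11.1 CPM in WT. The lowest Emx2 KO library and the highest WT library nearly met (11.56 and 11.55 CPM). Emx2 KO was higher by log2 0.998 (± 0.22 SE, adjusted p = 0.00796).

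Kcnh4 (chromosome 11), for an ELK-type channel, stood at 9.32, 15.8, 19.5, 13.0 and 8.58 CPM in Emx2 KO and at 6.25, 6.83, 6.29, 5.49 and 4.17 CPM in WT. The Emx2 KO libraries were all higher but spread widely (fold change 2.26, log2 1.17 ± 0.22, adjusted p = 0.00303).

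Kcnh7 (ENSMUSG00000059742, chromosome 2), for ERG3, was the most abundant Kcnh gene in WT and fell. Its level was 16.4, 21.4, 34.5, 22.4 and 32.5 CPM in Emx2 KO and 30.0, 55.6, 48.0, 57.0 and 49.7 CPM in WT. Emx2 KO replicates 3 and 5 lay above WT replicate 1, so the groups overlapped (log2 -0.94 ± 0.23, adjusted p = 0.0159). With no filter on low counts its call was lost, as was that of Kcna2. Among the 5 large libraries the value was -1.39, and among the 5 small ones -0.43 (adjusted p = 0.429). The ratio of Kcnh2 to Kcnh7 per kilobase was 1.12 to 3.02 in Emx2 KO and 0.315 to 0.890 in WT.

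Of the other 5 Kcnh genes, none passed. Kcnh6, the remaining ERG-type gene, was at 1.07 ± 0.487 against 0.541 ± 0.279 CPM (log2 1.06 ± 0.40, adjusted p = 0.0747), and Kcnh8, another ELK-type gene, at 3.89 ± 0.750 against 2.25 ± 0.997 CPM (log2 0.76 ± 0.26, adjusted p = 0.0595).

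**Figure D3:**
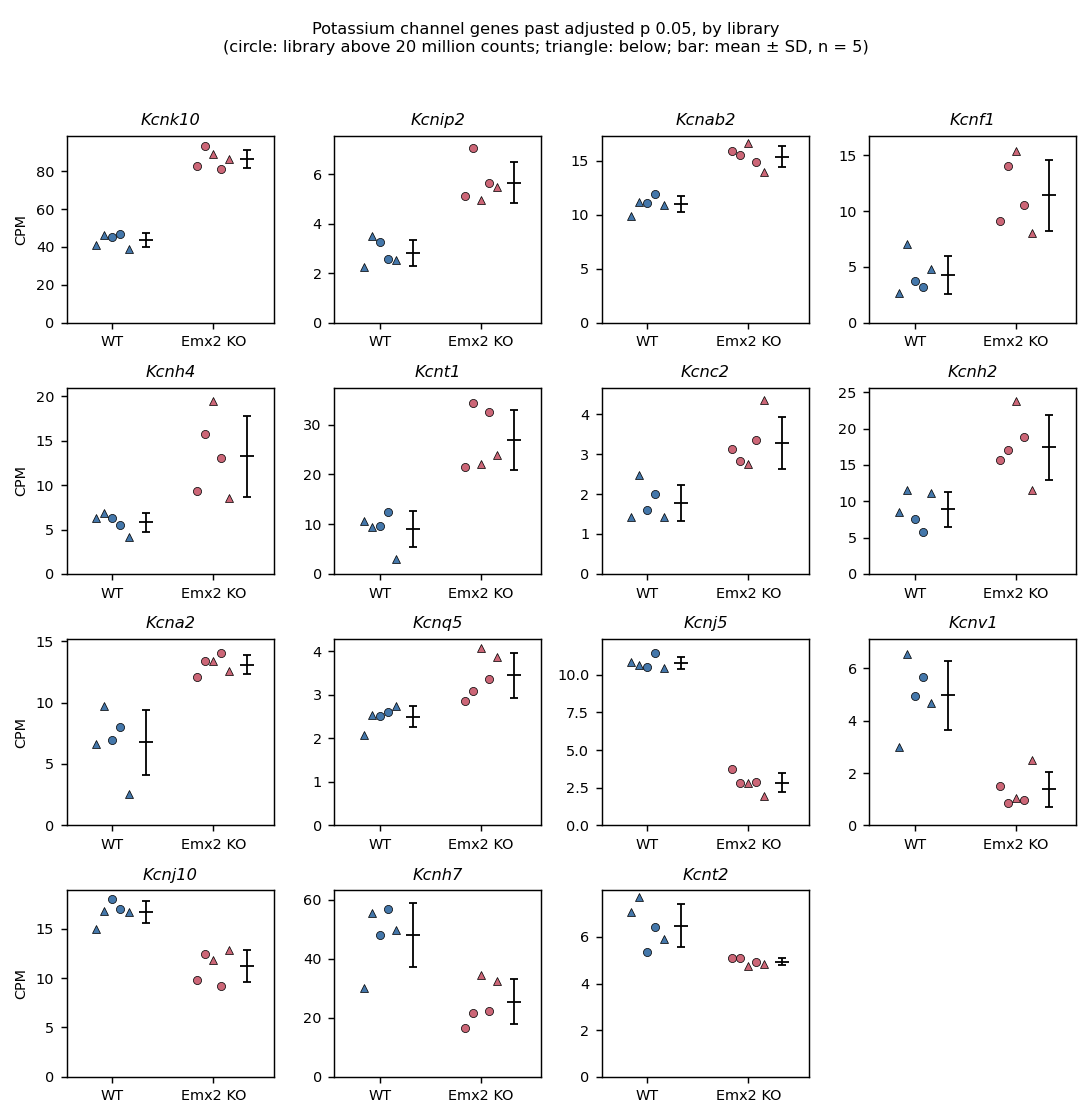
CPM of 15 of the potassium channel genes that passed adjusted p 0.05 with a mean of at least 1 CPM, in each of the 5 WT and 5 Emx2 KO libraries. Circles are libraries above 20000000 counts and triangles those below, and the bar beside each group is the mean ± SD. Each gene but Kcnh7 shows separate groups, and both markers lie on the same side of the gap.

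Rises were also found in the Kcna, Kcnc and Kcnq subfamilies. Kcna2, for a Kv1-type channel of axons, stood at 12.1, 13.4, 13.4, 14.0 and 12.6 CPM in Emx2 KO and at 6.66, 9.73, 6.92, 8.02 and 2.54 CPM in WT. The Emx2 KO libraries were close together and all higher, and WT replicate 5 was again the lowest (log2 0.92 ± 0.23, adjusted p = 0.0159).

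Kcnc2, for a fast-deactivating channel of fast-spiking neurons, was at 3.12, 2.83, 2.75, 3.36 and 4.36 CPM in Emx2 KO and at 1.42, 2.47, 1.61, 1.99 and 1.42 CPM in WT. Every Emx2 KO library was above every WT library (log2 0.86 ± 0.20, adjusted p = 0.00794).

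Kcnq5, for a subunit of the M-current, which restrains repetitive firing, was at 2.86, 3.09, 4.08, 3.36 and 3.88 CPM in Emx2 KO and at 2.08, 2.54, 2.52, 2.61 and 2.75 CPM in WT. The groups nearly met (log2 0.45 ± 0.15, adjusted p = 0.0484), and the call was lost in 9 of the 10 fits that left out a library (adjusted p up to 0.113). Another M-current gene, Kcnq3, did not pass. It was at 34.6 ± 10.6 against 42.8 ± 10.02 CPM (log2 -0.33 ± 0.23, adjusted p = 0.362). None of the 3 Kcnd genes, which carry the A-type current, passed. Kcnd3, the most abundant, was at 71.4 ± 14.6 against 53.6 ± 13.4 CPM (log2 0.40 ± 0.19, adjusted p = 0.182).

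Silent subunits included a rise and a fall past the threshold. Kcnf1 (ENSMUSG00000051726, chromosome 12) stood at 9.09, 14.0, 15.4, 10.6 and 8.03 CPM in Emx2 KO and at 2.67, 7.05, 3.74, 3.15 and 4.78 CPM in WT. All Emx2 KO libraries were above WT replicate 2, the highest WT library (fold change 2.71, log2 1.44 ± 0.27, adjusted p = 0.00271). Kcnv1 (ENSMUSG00000022342, chromosome 15) stood at 1.51, 0.855, 1.04, 0.982 and 2.49 CPM in Emx2 KO and at 3.00, 6.54, 4.93, 5.67 and 4.68 CPM in WT. Here all Emx2 KO libraries were below all WT libraries, at 0.271 of the WT level (log2 -1.89 ± 0.29, adjusted p = 0.000703).

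Of the auxiliary subunits, Kcnip2 and Kcnab2 rose. Kcnip2, for a calcium-binding subunit of Kcnd channels, lies on chromosome 19, as does Emx2. It stood at 5.12, 7.06, 4.97, 5.65 and 5.47 CPM in Emx2 KO and at 2.25, 3.49, 3.24, 2.58 and 2.54 CPM in WT. The groups were separate, with a log2 fold change of 0.996 (± 0.16 SE, adjusted p = 0.000761). Any part of linkage to the Emx2 allele in this difference was not tested. The other 3 Kcnip genes had log2 fold changes of -0.34 to -0.46 and did not pass, among them Kcnip3 (11.9 ± 1.83 against 16.2 ± 3.86 CPM, adjusted p = 0.0749). Kcnab2, for a cytoplasmic subunit of Kcna channels, stood at 15.9, 15.5, 16.6, 14.9 and 14.0 CPM in Emx2 KO and at 9.91, 11.2, 11.1, 11.97 and 10.9 CPM in WT, again with no overlap (log2 0.48 ± 0.08, adjusted p = 0.000833). Of Kcne and Kcnmb, none passed. Kcne3 was at 1.74 ± 0.512 against 1.89 ± 1.07 CPM (log2 -0.05 ± 0.36, adjusted p = 0.946) and Kcnmb4, a BK subunit of neurons, at 4.40 ± 1.18 against 5.18 ± 0.222 CPM (log2 -0.25 ± 0.18, adjusted p = 0.356).

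**Figure D4:**
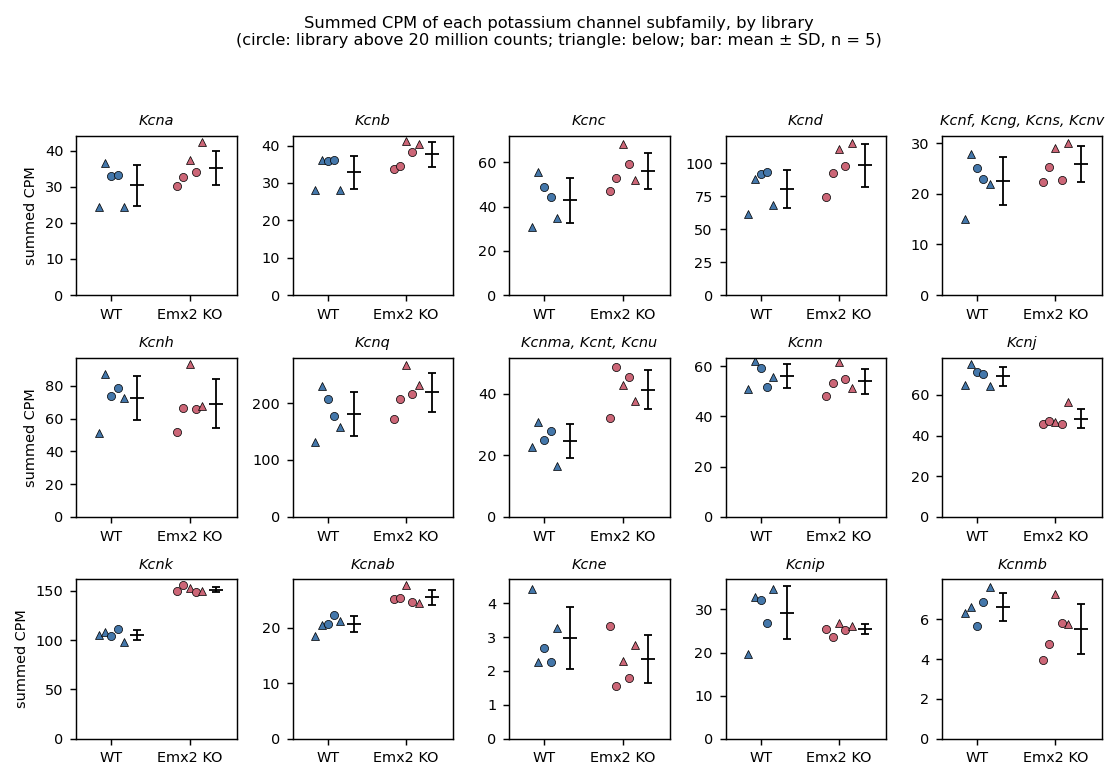
Summed CPM of each of the 15 subfamilies in each library (WT left, Emx2 KO right, circles above and triangles below 20000000 counts, bars mean ± SD of 5). The Kcnk sum (148 to 156 in Emx2 KO against 98.2 to 111 CPM in WT) and the Kcnj sum (45.8 to 56.6 against 64.2 to 75.3 CPM) are separate, as are those of Kcnab and of Kcnma, Kcnt and Kcnu together. Without members past the threshold, the Kcnab sums overlapped (9.22 to 11.1 against 8.58 to 10.4 CPM). The same holds for Kcnma, Kcnt and Kcnu, where Kcnma1 alone was left (5.19 to 15.4 against 4.41 to 12.3 CPM).

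The remaining 19 genes were too low to test, with at most 21 reads in any library, and Kcna10 and Kcnk16 had none. For 18 of them the groups overlapped. Kcnv2, a silent subunit gene of photoreceptors that also lies on chromosome 19, had 1 read in the 5 Emx2 KO libraries together and 20 reads in the 5 WT libraries. All WT libraries were above all Emx2 KO libraries. The genes left out as choroid plexus markers are of another order: Kcne2 was at 0.393 ± 0.296 against 20.5 ± 3.28 CPM and Kcnj13 at 0.173 ± 0.130 against 1.86 ± 0.457 CPM.

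Markers of cell types also differed between the libraries. Besides the cortical identity genes given above, of which 5 of 6 were higher in Emx2 KO and 0 lower, the following lists were summed. Of all genes tested, 12.9% were higher and 9.33% lower. The gene Eomes is in both the cortical and the intermediate progenitor list. The summed level of 10 neuronal genes was 3948 to 5234 CPM in Emx2 KO and 2661 to 4174 CPM in WT, with 4 higher and 0 lower, and that of 11 subpallial genes 207 to 729 against 105 to 315 CPM, with 6 higher and 0 lower. Summed radial glia genes stood at 2809 to 3275 against 2527 to 2654 CPM (5 higher and 1 lower of 8), and intermediate progenitor genes at 1073 to 1400 against 795 to 1042 CPM (5 and 0 of 7). The choroid plexus list, which includes Kcne2 and Kcnj13, was at 58.3 to 93.9 against 258 to 313 CPM (0 and 8 of 10). For pericytes the ranges were 237 to 327 and 261 to 299 CPM (0 and 1 of 7 tested) and for endothelium 201 to 356 and 251 to 337 CPM (0 and 0 of 10). Meningeal genes summed to 587 to 804 against 568 to 803 CPM (0 and 2 of 8), microglial genes to 41.8 to 58.0 against 46.8 to 62.1 CPM (0 and 0 of 8) and blood genes to 2389 to 7599 against 2306 to 5631 CPM (0 and 0 of 9). No marker was at 0 in every library. Neuronal markers were lowest in WT replicates 1 and 5 (2661 and 3024 CPM). WT replicate 5, the smallest library (9720840 counts), was also lowest for Kcnt1 and Kcna2. The highest neuronal sum in WT was in replicate 2 (4174 CPM). Between WT replicates 1 and 2, Kcnt1 went the other way (10.6 and 9.37 CPM), while Kcna2 went with the sum (6.66 and 9.73 CPM). The part of these differences in cell markers in the potassium channel results was not tested.

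Channels outside the Kcn names gave the following counts, each beside the 12.9% higher and 9.33% lower of all genes. Of 13 tested partners of potassium channels, 5 rose and 1 fell. The endoplasmic reticulum protein gene Vapb, whose product clusters Kcnb channels, rose (log2 0.22 ± 0.04, adjusted p = 0.00138), as did Cntnap2, for an adhesion protein that gathers Kcna channels at axons (0.21 ± 0.05, adjusted p = 0.0127), whereas Tmem175, for a lysosomal potassium channel, fell (-0.29 ± 0.07, adjusted p = 0.00975). Of the 4 pacemaker (Hcn) channel genes only Hcn4 passed (29.5 against 19.3 CPM, log2 0.62 ± 0.12, adjusted p = 0.00347). Of 11 voltage-gated sodium channel genes 6 rose and 0 fell, among them Scn11a (0.90 ± 0.23, adjusted p = 0.0160). Of 21 tested genes with calcium channel subunit symbols (Cacna1, Cacna2d, Cacnb and Cacng) 7 rose, such as Cacng8 (0.71 ± 0.11) and Cacng5 (0.74 ± 0.18), and 3 fell. These genes were listed by symbol, and a Cacng symbol does not show that the product works in a calcium channel. The T-type channel Cacna1g went from 127 to 65.6 CPM (-0.96 ± 0.09, adjusted p = 3.28e-05), and Cacna2d3, an auxiliary subunit, changed by -2.10 ± 0.32. Of 6 tested subunits of the sodium-potassium pump 2 rose, among them Atp1b1 (0.78 ± 0.15, adjusted p = 0.00318), and 0 fell.

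All 17 potassium channel genes past the threshold had the same direction in the 5 large libraries, the 5 small libraries and the 4 libraries of each of title codes 241022 and 14922. For the 16 genes with separate groups this was all but fixed in advance, because any subset of libraries keeps the order. It is therefore no support for these calls. In the large libraries 14 of the 17 passed, in the small ones 2 (Kcnk10 and Kcnj5), with code 241022 alone 3 and with code 14922 alone 8. The 17 genes were selected with these libraries included, so passing in a part of them is no independent support. In the large libraries, and again in the small ones, no title code holds both genotypes, so code and genotype cannot be told apart there. A difference of the genotype effect between the codes was found for 0 of 71 potassium channel genes (edgeR interaction, adjusted p under 0.05), against 1.53% of all genes. In these codes the interaction of code and genotype is also library size class, so this test cannot tell them apart. With few libraries per code and genotype, it does not show that the effects are equal. At an unadjusted p under 0.05 there were 4, 5.63% of the 71, against 6.53% of all genes, led by Kcnh1 (log2 ratio of effects -1.46 ± 0.47, adjusted p = 0.432). Of the 17 genes, 5 share annotated exon bases with another gene. Among them are Kcnh7 (696 bases with Gca), Kcnq5 (237), Kcnab2 (125) and Kcnt2 (102). Reads there cannot be assigned to 1 gene without the strand and overlap settings, which are not given in the sources used here.

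**Figure D5:**
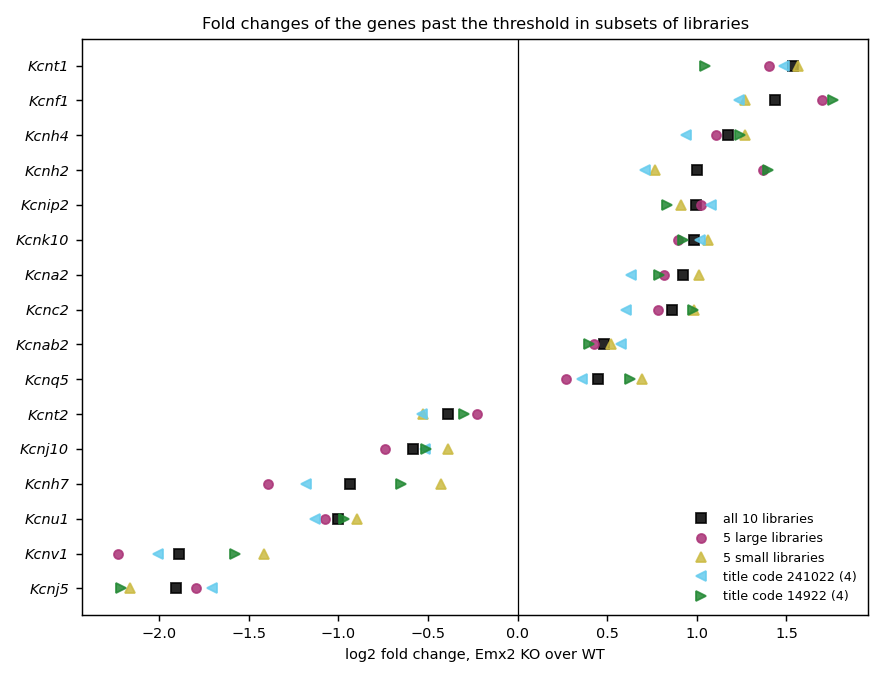
Log2 fold change (Emx2 KO over WT) of 16 of the potassium channel genes past the threshold, fitted in all 10 libraries, in the 5 large, the 5 small and in the 4 libraries of each of 2 title codes. No marker crosses 0, which separate groups all but fix in advance for every gene but Kcnh7. Kcnh7 shows a wide span, from -1.39 in the large to -0.43 in the small libraries.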

How the data were processed

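The authors deposited raw counts per Ensembl gene for each library, whole numbers with no header and no normalization. The submitters' processing notes list featureCounts 1.6.3-p1, STAR 2.7.8a and bcl2fastq 2.20, and the builds GRCm39 and rn6. Strand, overlap and other settings are not given in the sources used here. Symbols were matched by identifier for 52073 of the 56748 genes. Biotypes, exon lengths and overlaps came from GENCODE M21 on GRCm38, by identifier, and levels per kilobase use its merged exon length, UTRs included.

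Low counts were removed by filterByExpr at a minimum count of 10, and the rest was scaled by TMM and tested with edgeR's quasi-likelihood F test with robust estimation (edgeR 4.0.16, R 4.3.3) over all 18163 genes, two-sided, with Benjamini-Hochberg adjustment and a threshold of 0.05. Every adjusted p is from this test unless another is named. SE was derived from the F statistic. CPM is given as mean ± SD, n = 5. Robust estimation was adopted after seeing that it gave the known earlier counts of calls, and the fit without it is an added alternative. The members, lists, tests and naming rule were chosen with earlier results of these data known. Values in every library are given for those past the threshold whose mean over libraries was 1 CPM or more, and the other named members are the rest past the threshold, the most abundant of each subfamily where none passed and the 5 of highest mean CPM. Further members named with values (Kcnk2, Kcnk5, Kcnk13, Kcnj3, Kcnj6, Kcnj8, Kcnma1, Kcnn2, Kcnh1, Kcnh6, Kcnh8, Kcnip3, Kcna3, Kcnv2, and Abcc9 among partners) were chosen after their values were seen. In the other lists up to 2 genes of the smallest p in each direction are named. Some genes that meet these rules are not reported here by name. The script was tested on simulated data. Alternatives were DESeq2 1.42.0, limma-voom (limma 3.58.1), other scalings and filters, blocks, subsets and each library left out.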

Additional observations from a re-analysis of the deposited data

How the results depend on the processing

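All 17 potassium channel genes past the threshold kept their direction in each alternative run in which they were tested, and 14 of them passed in all 10 fits that left out 1 library. The exceptions were Kcnq5, Kcnt2 and Kcnu1. For the 16 genes with separate groups, the direction in fits on fewer libraries was all but fixed in advance. The 17 genes were selected for passing in these same 10 libraries, so passing again with 1 left out is no independent support. Against 11 higher and 6 lower, the number lower was 10 with total counts alone, 12 with limma-voom, 11 in the large libraries and 3 at an adjusted p of 0.01. Over all genes the number lower was 1694 in the main fit, 2464 with total counts alone, 1899 with limma-voom and 1389 in the large libraries. No count over all genes is given for an adjusted p of 0.01. The small libraries gave 2 higher and 1 lower, title code 241022 gave 2 and 1, and title code 14922 gave 4 higher. Over all genes these subsets gave 335 higher and 291 lower, 243 and 287, and 1007 and 703, with a median of -0.15 for the potassium channel genes in code 241022 and 0.14 in code 14922. These subsets hold 5, 4 and 4 libraries. Leaving out 1 library gave 10 to 14 potassium channel genes higher, 4 to 11 lower and a median of -0.09 to 0.07, and over all genes 1783 to 2303 higher and 1289 to 1759 lower. The count of 11 lower came without Emx2 KO replicate 5.

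Among genes that did not pass, the log2 fold change turned for Kcnd3 in the large libraries (-0.056), for Kcnmb4 in the small libraries (0.067) and in code 14922 (0.055), and for Kcnq3 in the small libraries (0.20). That of Kcne3 turned with limma-voom (0.18), size class as a block (0.13), Y-linked expression as a covariate (0.033), the large libraries (0.46) and code 14922 (0.79), and ran from -0.27 to 0.31 when 1 library was left out. The causes were not tested. No paired analysis was possible because the replicate numbers only follow the order of the samples. Title code as a block gave 12 higher and 7 lower (2297 and 1726 over all genes), kept all 17 calls and added Kcnj6 and Kcnn2. Size class as a block lost Kcnt2 (adjusted p = 0.0577), and Y-linked expression as a covariate lost Kcnq5, Kcnt2 and Kcnu1 (0.134, 0.111 and 0.0546). With no filter 13 of the 17 calls were kept (Kcna2, Kcnh7, Kcnq5 and Kcnt2 were lost) and Kcnv2 passed. Without robust estimation all 17 were kept. Further members that had missed the threshold passed in some alternatives, of which these are examples. Kcnk13 and Kcnh8 did so with DESeq2 and limma-voom. Kcnip3 did so with DESeq2, Kcnj3 with limma-voom and in the large libraries, and Kcnh6 with size class as a block. None of the 19 untested genes exceeded 21 reads in a library, and whether depth or absent expression accounts for this was not tested.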
